A study of Homo sapiens with 2 samples.

Results

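Genes for the transport of copper and cisplatin were compared between control and FZR1 ko breast cancer cells, both treated with cisplatin. The 10 genes were picked by name for what they do, with earlier results of these data known, and they fall into 5 roles: the SLC31 copper transporters SLC31A1 and SLC31A2, the copper ATPases ATP7A and ATP7B, the copper chaperones ATOX1 and CCS, the ABCC exporters ABCC1 and ABCC2, and the LRRC8 channel subunits LRRC8A and LRRC8D. All 10 were found by their Entrez gene IDs among the 23033 genes with a value. Cisplatin (abbreviated DDP) is a platinum drug that reacts with DNA. Its entry into and exit from cells has been linked to proteins that carry copper, a metal that cells need for enzymes but keep bound because the free ion is toxic. SLC31A1 (CTR1) takes up copper at the cell surface, chaperones hand the ion on inside the cell, and ATP7A and ATP7B pump it into the secretory pathway or out of the cell. ABCC1 (MRP1) and ABCC2 (MRP2) export glutathione conjugates. The volume-regulated anion channels built from LRRC8 subunits let cisplatin through.

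RNAseq of total RNA was done on the BGISEQ-500 platform, with 1 library from the control and 1 from the FZR1 ko cells. The control cells are labelled T-47D with WT genotype, and the other library is labelled T-47D with FZR1 ko; FZR1 is an activator of the anaphase promoting complex. The labels give 2 μg/mL cisplatin for both, the exposure time of this experiment is not stated, and cells without the drug were not analysed here. The ko line was made with CRISPR/Cas9 and single cell cloning, so it is 1 clone, and a difference between clones cannot be told apart from one due to FZR1. No difference between the libraries has a replicate check, and no p-value, error or interval is given. The values are FPKM, in which read fragments are divided by transcript length and library size, and sequencing depth cannot be known from them. FZR1 itself had 12.3 and 10.1 FPKM in the control and the FZR1 ko library. This level does not check the labels, because mRNA may persist when Cas9 cuts only shift the reading frame. Of 12 luminal markers 5 reached 1 FPKM in a library, and the defining ones of T-47D were near 0 in both libraries: ESR1 was at most 0.13, PGR at most 0.01, GATA3 at most 0.31 and CDH1 at most 0.69 FPKM. The luminal keratin gene KRT8 reached 829 and 998 FPKM, and the mesenchymal gene VIM (vimentin) 315 and 295 FPKM. The data thus go against the T-47D label for these receptors, GATA3 and E-cadherin (CDH1), and the cells are named here only as labelled. Of the 10 basal and mesenchymal markers 7 reached 1 FPKM, and CDH2 (N-cadherin) was the only one past 2-fold, with 2.97 FPKM in the control and 15.3 in the FZR1 ko library. Of these 7, 2 were higher and 5 lower in FZR1 ko, among them KRT17 with 103 and 55.8 FPKM, and their median log2 ratio was -0.09. Among all genes that reached 1 FPKM in either library, 13.5% were past 2-fold. The FPKM of the 12 luminal markers summed to 1491 and 1824 in the control and the FZR1 ko library, and those of the 10 others to 502.6 and 439.7. The higher luminal sum is that of KRT8 and KRT18 (552 and 740 FPKM), while FOXA1, TFF1 and XBP1, the other 3 luminal markers kept, were lower in FZR1 ko, and the median log2 ratio of the 5 was -0.10. The part of the state of the cells in the values of the transport genes was not tested.

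The copper chaperones and the copper ATPases share a copper-binding sequence, which is shown because it is a site where these 4 proteins can hold the metal. It runs methionine, any residue, cysteine, any 2 residues, cysteine, and the cysteines bind the ion. In the coding sequence of the main transcript of each gene (GENCODE 44, hg38) this series of codons occurred 1 time in ATOX1, 1 time in CCS, 6 times in ATP7A and 6 times in ATP7B. It did not occur in SLC31A1, SLC31A2, ABCC1, ABCC2 or LRRC8D, and occurred 1 time in LRRC8A, where no copper binding is known. The first site of ATOX1, CCS and ATP7A is given 5′ to 3′ with 1 codon on each side, and capitals mark the methionine and the cysteine codons.
ATOX1: gacATGaccTGTggaggcTGTgct
CCS: cagATGaccTGTcagagcTGTgtg
ATP7A: ggtATGactTGCaattccTGTgtt
These sites start at codon 10 of ATOX1, codon 20 of CCS and codon 17 of ATP7A. ATOX1 has 68 codons in all, CCS 274, ATP7A 1500 and ATP7B 1465. SLC31A1, which carries copper without this motif, has 17 methionine codons among 190, and SLC31A2 has 5 among 143.

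The levels of the 10 genes spanned a wide range. ATOX1 was highest of the 10 in both libraries, at 70.4 FPKM in the control and 57.7 in the FZR1 ko library. ATP7B was lowest in both, at 0.08 and 0.27 FPKM. In control ATOX1 was followed by LRRC8A, CCS, SLC31A1, SLC31A2, LRRC8D, ABCC2, ABCC1 and ATP7A, and in FZR1 ko by CCS, LRRC8A, LRRC8D, SLC31A1, ABCC1, SLC31A2, ABCC2 and ATP7A. The difference of a gene is its log2 ratio of FZR1 ko to control after 1 FPKM was added to each value, which brings the ratio of low genes closer to 0. It was counted for genes that reached 1 FPKM in either library. Of the 10 genes 9 were kept by this filter and ATP7B was not, while ATP7A passed it only through FZR1 ko. Of these 9, 3 differed at least 2-fold between the libraries, and among all 13554 genes kept 13.5% did. ABCC1 was higher in FZR1 ko, ABCC2 and LRRC8A were lower, and 6.79% of all genes kept were at least 2-fold higher and 6.72% at least 2-fold lower. With 9 genes this count is small, and nothing particular to them is read from it. The median log2 ratio of the 9 genes was -0.32, with 3 higher and 6 lower in FZR1 ko, and that of all genes kept was -0.0048. Of all genes kept 6726 were higher and 6812 lower in FZR1 ko.

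**Figure D1:**
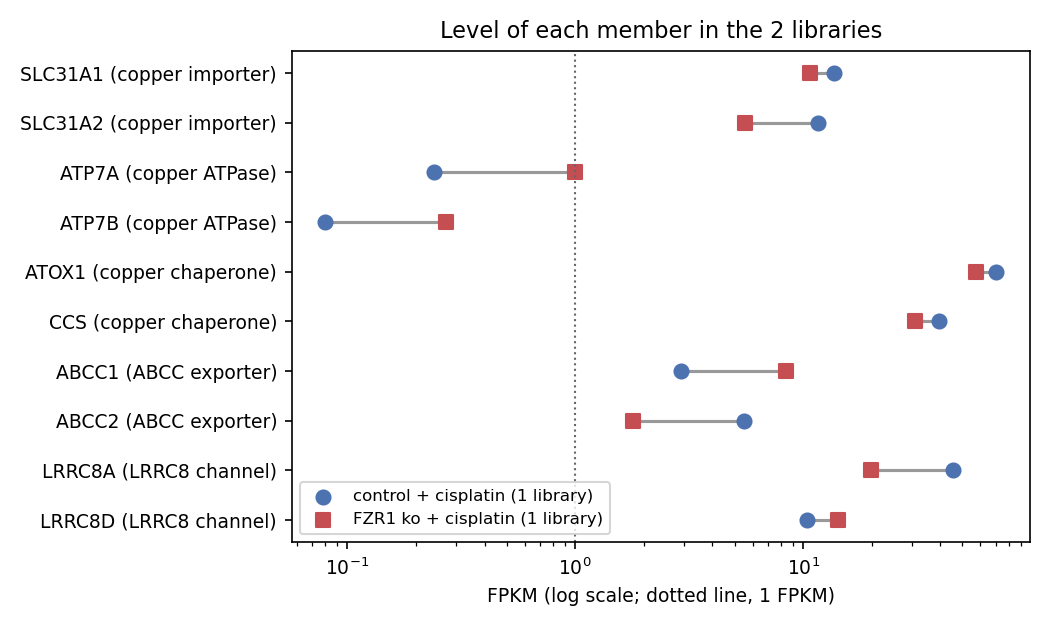
FPKM (x axis, log scale) of each of the 10 genes (y axis, with its role), with a blue circle for the control library and a red square for the FZR1 ko library. ATOX1, CCS and both SLC31 genes lie lower in FZR1 ko, ATP7A and ATP7B lie at or under 1 FPKM (dotted line), and ABCC1 and ABCC2 differ in opposite directions.

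The copper transporters of the SLC31 family were both lower in FZR1 ko. SLC31A1 (Entrez gene 1317, chromosome 9 of hg38 from 113221544 to 113264492, plus strand), the high-affinity copper importer that has been linked to cisplatin uptake, had 13.7 FPKM in the control and 10.7 in the FZR1 ko library. Its log2 ratio was -0.32, and 39.6% of all genes kept differed less. SLC31A2 (CTR2, Entrez gene 1318), found mainly on internal membranes, lies on the same strand of chromosome 9 from 113150976 to 113164140. It had 11.7 FPKM in the control and 5.58 in the FZR1 ko library (log2 ratio -0.95). This stayed short of 2-fold with 1 FPKM added, although the FPKM alone were 2.09-fold lower. The main transcript of SLC31A2 shares 91.8% of its bases with exons of FKBP15 on the opposite strand, and the sources used here do not say that strand was used in the counting. FKBP15 had 10.1 and 9.34 FPKM, so the value of SLC31A2 is uncertain. Within the pair, SLC31A1 made up 54.0% of the summed FPKM in control and 65.8% in FZR1 ko.

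The chaperones were among the 3 most abundant of the 10 genes in both libraries, and their log2 ratios were close. ATOX1 (Entrez gene 475, chromosome 5 from 151742316 to 151772532, minus strand) delivers copper to ATP7A and ATP7B. It had 70.4 and 57.7 FPKM, a log2 ratio of -0.28, and its level exceeded that of 90.1% of the genes kept in control and 88.6% in FZR1 ko. CCS (Entrez gene 9973, chromosome 11 from 66593153 to 66606019, plus strand) loads copper into superoxide dismutase 1. It had 39.5 FPKM in the control and 31.0 in the FZR1 ko library (log2 ratio -0.34). Both values were lower in FZR1 ko by a similar step, so ATOX1 stood at 1.78 times the FPKM of CCS in control and 1.86 times in FZR1 ko. SOD1, the enzyme that CCS serves, was named after its values were seen and had 275 and 271 FPKM.

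The ATPases that receive copper from ATOX1 had low values in both libraries. ATP7A (Entrez gene 538, chromosome X from 77910690 to 78050395, plus strand), the ATPase mutated in Menkes disease, had 0.24 FPKM in the control and 1 in the FZR1 ko library. On the scale with the pseudocount this is a log2 ratio of 0.69, and the FPKM alone differed 4.17-fold. ATP7B (Entrez gene 540, chromosome 13 from 51930436 to 52012125, minus strand), the ATPase mutated in Wilson disease, had 0.08 FPKM in the control and 0.27 in the FZR1 ko library, which is 3.38-fold and a log2 ratio of 0.23 with 1 FPKM added. Both genes had the higher value in FZR1 ko, but FPKM was deposited to 2 decimals and values this low can rest on few reads. Of the 8492 bases of the main ATP7A transcript, 143 lie in the pseudogene C4orf46P2 and 97 in exons of PGK1, a glycolytic gene of 180 and 175 FPKM, both on the same strand. ATOX1 exceeded ATP7A 293-fold in control and 57.7-fold in FZR1 ko, in FPKM.

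The 2 ABCC exporters differed in opposite directions. ABCC1 (Entrez gene 4363, chromosome 16 from 15949138 to 16143257, plus strand), an exporter of glutathione conjugates at the basolateral membrane of epithelial cells, had 2.91 FPKM in the control and 8.43 in the FZR1 ko library. Its log2 ratio was 1.27, and 93.4% of all genes kept differed less. ABCC2 (Entrez gene 1244, chromosome 10 from 99782640 to 99852594, plus strand), its counterpart at the apical membrane, had 5.48 FPKM in the control and 1.79 in the FZR1 ko library. Its log2 ratio was -1.22, and 92.2% of all genes kept differed less. The FPKM of ABCC1 was 0.531 times that of ABCC2 in control and 4.71 times in FZR1 ko, while their sum was 8.39 and 10.2 FPKM. Both are genes of a few FPKM, and with a pseudocount of 5 FPKM neither passed 2-fold (log2 ratios 0.76 and -0.63).

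**Figure D2:**
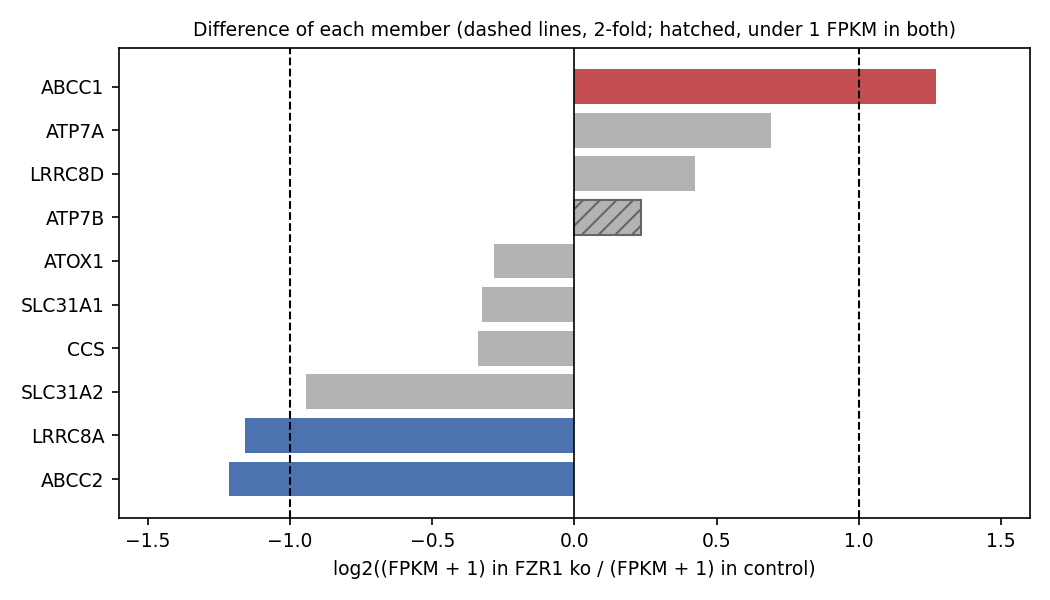
Log2 ratio of FZR1 ko to control (x axis, with 1 FPKM added to each value) for each of the 10 genes (y axis), with 2-fold marked by dashed lines. ABCC1 (red) passes 2-fold upwards at 1.27, LRRC8A and ABCC2 (blue) pass it downwards at -1.16 and -1.22, and ATP7B (hatched) was under 1 FPKM in both libraries.

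Of the 3 members past 2-fold, LRRC8A had the highest FPKM in both libraries. LRRC8A (SWELL1, Entrez gene 56262, chromosome 9 from 128882133 to 128918039, plus strand) is the subunit that every volume-regulated anion channel needs. It had 45.5 FPKM in the control and 19.9 in the FZR1 ko library (log2 ratio -1.16), and 90.9% of all genes kept differed less. LRRC8D (Entrez gene 55144, chromosome 1 from 89821014 to 89936611, plus strand), the partner subunit that makes the channel permeable to cisplatin and to organic osmolytes, had 10.4 and 14.3 FPKM, a log2 ratio of 0.42. LRRC8A lay 2.29-fold lower in FZR1 ko without a pseudocount, and LRRC8D 1.37-fold higher. LRRC8A exceeded LRRC8D 4.37-fold in control and 1.39-fold in FZR1 ko. Another annotated protein-coding gene shares 8.33% of the bases of the main LRRC8D transcript on the same strand, and its part in the value was not tested.

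The other subunits completed the family. LRRC8E had 12.9 FPKM in the control and 7.24 in the FZR1 ko library (log2 ratio -0.75). LRRC8B had 1.78 and 2.57 FPKM, and LRRC8C was listed at 0 in control and had 0.01 FPKM in FZR1 ko. The summed FPKM of the 5 genes was 70.55 in control and 43.95 in FZR1 ko. LRRC8A made up 64.5% of this sum in control and 45.2% in FZR1 ko, LRRC8D 14.7% and 32.5%, and LRRC8E 18.3% and 16.5%. The lower sum in FZR1 ko was thus mostly that of LRRC8A and LRRC8E, while LRRC8D and LRRC8B had higher values.

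**Figure D3:**
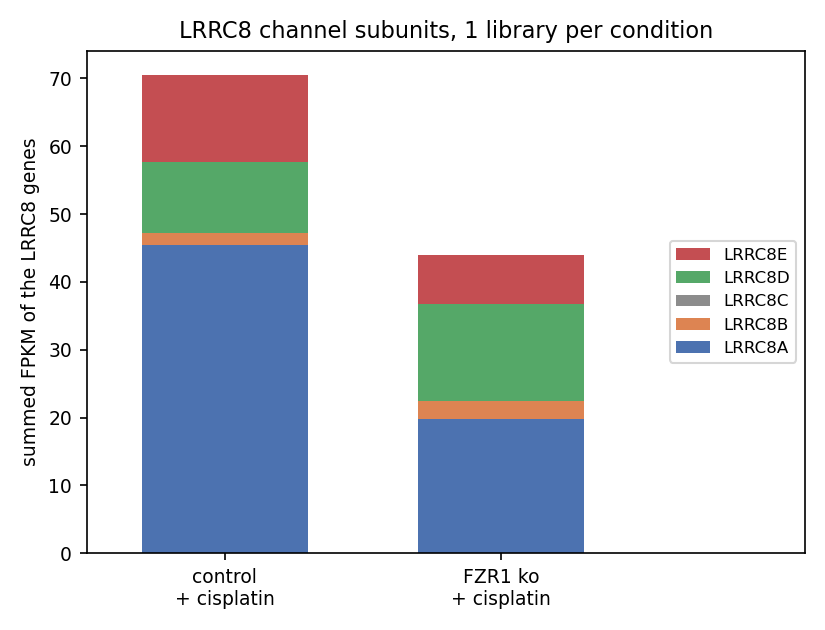
Summed FPKM (y axis) of the LRRC8 genes in the control and the FZR1 ko library (x axis), with 1 colour for each subunit. The column is shorter in FZR1 ko, the LRRC8A part is 45.5 and 19.9 FPKM high and the LRRC8D part 10.4 and 14.3 FPKM.

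The 250 bases before the transcription start were read from RefSeq (GRCh38.p14) for the members in its promoter table, which held 12 windows of 8 of the 10 genes. SLC31A2 and ABCC1, the only member at least 2-fold higher in FZR1 ko, had no window. The windows of LRRC8A and ABCC2, the members at least 2-fold lower in FZR1 ko, are shown, with that of SLC31A1, which shares a motif with LRRC8A. Both strands were searched for the metal response element core (TGCACNC or TGCGCNC), the antioxidant response element core (TGACNNNGC), the AP-1 site (TGANTCA) and the cyclic AMP response element (TGACGTCA), the last of which was added after the windows had been read. Capitals mark the matches. For LRRC8A, which has 2 start sites in the table, the first is given, and the other held none of these motifs.
LRRC8A (chr9:128881883-128882132, plus strand): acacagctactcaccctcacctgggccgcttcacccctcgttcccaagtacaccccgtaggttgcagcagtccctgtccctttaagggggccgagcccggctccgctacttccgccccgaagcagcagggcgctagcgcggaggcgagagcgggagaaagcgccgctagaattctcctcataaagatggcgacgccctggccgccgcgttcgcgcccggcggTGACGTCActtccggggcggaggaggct
SLC31A1 (chr9:113221294-113221543, plus strand): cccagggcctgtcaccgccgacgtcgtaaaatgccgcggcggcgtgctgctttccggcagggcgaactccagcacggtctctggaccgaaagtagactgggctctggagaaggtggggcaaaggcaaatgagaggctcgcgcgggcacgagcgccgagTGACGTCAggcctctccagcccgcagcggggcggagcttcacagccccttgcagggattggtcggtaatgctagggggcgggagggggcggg
ABCC2 (chr10:99782390-99782639, plus strand): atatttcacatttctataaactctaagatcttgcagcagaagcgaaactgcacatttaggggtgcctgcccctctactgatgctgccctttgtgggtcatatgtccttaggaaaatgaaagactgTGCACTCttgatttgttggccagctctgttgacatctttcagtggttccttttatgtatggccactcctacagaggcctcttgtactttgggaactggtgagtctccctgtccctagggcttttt
The palindromic TGACGTCA lies 28 to 21 bases before the start of LRRC8A and 92 to 85 bases before that of SLC31A1, and it occurred in 1.65% of all 35116 windows in the table. The window of ABCC2 held 1 metal response element core, and 24.8% of all windows held at least 1. Of the 12 windows, 5 held this core (1 each of ABCC2, ATOX1, ATP7B, CCS and LRRC8D), 1 held the antioxidant element (CCS, against 10.9% of all windows) and 1 held an AP-1 site (ATP7B, against 6.57%). These are matches of letters and were not tested as binding sites.

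Beyond the 10 genes, transporters and copper genes from 7 lists were described in the same way. Of their 57 other genes kept, 9 passed 2-fold, 5 of them higher and 4 lower in FZR1 ko. Among all genes kept 13.5% passed 2-fold, 6.79% higher and 6.72% lower, so nothing particular to these lists is read from the count. Past 2-fold or not, 6726 of all genes kept were higher and 6812 lower in FZR1 ko. Among the multidrug exporters, ABCC4 (MRP4), an exporter of organic anions and cyclic nucleotides, had 1.18 FPKM in the control and 4.06 in the FZR1 ko library (log2 ratio 1.21). Of the 7 exporters kept, 2 were past 2-fold higher (ABCC1 and ABCC4) and 1 was lower (ABCC2), with a median log2 ratio of 0.05. ABCC3 with 18.9 and 12.0 FPKM, ABCC5 with 6.89 and 9.81 FPKM and the drug pump ABCB1, which was listed at 0 in both libraries, were named after their values were seen. Among the organic cation and MATE transporters, SLC47A1 (MATE1), which moves organic cations out of cells, had 1.18 FPKM in the control and 5.13 in the FZR1 ko library (log2 ratio 1.49). All 4 genes of that list that were kept had the higher value in FZR1 ko, with a median of 0.69, but 4 genes are too few to read a direction from. Among them SLC22A3 (OCT3), an organic cation transporter named after its values were seen, had 4.94 and 10.45 FPKM.

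The copper handling list, which holds the 6 copper genes described above, had 25 genes kept, with a median log2 ratio of -0.24. Of these 25, 2 were past 2-fold higher and 2 lower, where 6.79% and 6.72% of all genes kept were. Without those 6 genes 20 were kept, 10 higher and 10 lower in FZR1 ko, with a median of -0.09. STEAP4, a metalloreductase that reduces copper and iron, had 8.46 FPKM in the control and 0.62 in the FZR1 ko library (log2 ratio -2.55), and it was kept only through the control. SCO2, a chaperone for the copper sites of cytochrome c oxidase, had 25.7 and 12.0 FPKM (-1.04). CUTC, a copper-binding protein, had 7.76 and 18.8 FPKM (1.18), and MEMO1, which binds copper, had 6.71 and 14.4 FPKM, which is 2.15-fold without the pseudocount. Exons of NCAPH2 on the opposite strand cover 87.1% of the main SCO2 transcript, and exons of DPY30 on the same strand cover 90.4% of that of MEMO1, so both values are uncertain. NCAPH2 had 47.35 and 40.02 FPKM, and DPY30 57.3 and 51.7 FPKM. MTF1, the transcription factor that senses metals, was named after its values were seen and had 6.63 FPKM in the control and 3.42 in the FZR1 ko library (-0.79).

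Of the 19 copper enzymes 16 had a value and 9 were kept, 1 past 2-fold higher and 2 lower, with a median of 0.62. LOX, which crosslinks collagen, had 0.92 and 3.62 FPKM (1.27). The amine oxidases AOC2 and AOC3 had 6.29 and 3.21 FPKM in control and 0.71 and 0.10 FPKM in FZR1 ko, and these neighbouring paralogs can share reads. Each of these 3 genes was kept only through the library where it was high, and 0 of the 5 genes of the list with 1 FPKM or more in both libraries were past 2-fold, against 10.5% of all genes under that filter. No gene of the copper-dependent cell death list was past 2-fold, and 9 of its 12 genes were higher and 3 lower in FZR1 ko, with a median of 0.25. FDX1, the reductase at the head of that route, had 11.9 and 13.4 FPKM, and DLAT, a lipoylated enzyme subunit of that route, had 33.1 and 40.3 FPKM; both were named with their values known. No partner of ATP7A and ATP7B in membrane traffic was past 2-fold either, with 9 of 10 kept and a median of 0.11. The counts of genes kept in these lists stand beside the 13.5% of all genes kept that were past 2-fold. Their directions stand beside 6726 higher and 6812 lower among all genes kept.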

How the data were processed

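The authors sequenced total RNA of both lines, aligned the reads with Bowtie2 and quantified them with RSEM on hg38, taken from UCSC. The submitters' processing notes give Trimmomatic 0.36, HISAT2 2.1.0 and Bowtie2 2.2.5, while the paper's methods name another Bowtie2 version. The annotation version, filters and strand setting are not given in the sources used here. They deposited FPKM per Entrez gene ID to 2 decimals, with 1 column per library and 0 other columns of values. The column named for cisplatin and an FZR1 guide was taken as FZR1 ko, and the column named for cisplatin alone as control; every direction rests on this. Of 24663 rows, 1630 had no value, and 22925 of the remaining 23033 IDs matched a RefSeq symbol (GRCh38.p14). Log2 ratios used a pseudocount of 1 FPKM, among genes that reached 1 FPKM in either library. A ratio of at least 2-fold either way was counted, and no test was made for want of replicates. Likeness of pattern between genes cannot be measured in 2 libraries. The computation was tested on simulated data with set changes and no noise, which checks the code but not the error of a call. Coordinates and exon overlaps came from GENCODE 44 (hg38). The members and lists were chosen with earlier results of these data known. Named genes are all 10 members, FZR1, marker genes, the LRRC8 family and genes of the other lists past 2-fold. Genes that overlap these, and others where the text says so, were named after their values were seen. HEPH and 2 mitochondrial genes of the copper enzyme list were not analysed here. The alternatives were pseudocounts of 0.1 and 5 FPKM, other filters, centring, rescaling to a sum of 1000000 and a 4-fold threshold. Python 3.11.15, numpy 2.4.6, pandas 2.3.3 and matplotlib 3.10.9 were used. Some sequence within these rules is not reported here.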

Additional observations from a re-analysis of the deposited data

How the results depend on the processing

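No paired analysis was possible because the control and the FZR1 ko cells gave 1 library each, and for the same reason no library could be left out. Under the 4 alternatives that change a ratio, 35 of 40 values of the 10 genes stayed on their side of 2-fold. All 40 kept their direction, but this is no sign of stability. An equal pseudocount in both libraries cannot turn a direction, and centring and rescaling shifted the ratios too little to do so. The number of members past 2-fold, 3 at first, was 5 with a pseudocount of 0.1 FPKM, where SLC31A2 (-1.05) and ATP7A (1.69) joined, and ATP7B reached 1.04 but was not kept. With 5 FPKM only LRRC8A was left (1 gene, -1.02), where ABCC1 had 0.76 and ABCC2 -0.63, and under a 4-fold threshold 0 were. Filters, centring and rescaling left the same 3 genes. The median log2 ratio of the members, -0.32, was -0.35 with a pseudocount of 0.1 FPKM, -0.27 with 5 FPKM, -0.30 without a filter and -0.33 with at least 1 FPKM in both libraries. Among all genes kept 1831 were past 2-fold, a share of 13.5%, against 2824 (20.8%) with a pseudocount of 0.1 FPKM, 453 (3.34%) with 5 FPKM and 150 (1.11%) at 4-fold. The share was 7.95% without a filter and 10.5% with at least 1 FPKM in both libraries. Of the genes in the other lists 9 were past 2-fold, against 12 with 0.1 FPKM, 10 with centring, 1 with 5 FPKM, 5 with at least 1 FPKM in both libraries and 2 at 4-fold. By construction fewer genes pass when the pseudocount or the threshold is larger. The depth behind the low values of ATP7A and ATP7B is unknown.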
